A study of Homo sapiens with 7 samples.

Results

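In HT1080 cells, a human fibrosarcoma line, 1141 regions carried a peak of phosphorylated histone H2A (pT120, phosphate on threonine T120) after VRK1 siRNA, lay on a peak of ubiquitylated H2A (ubK119, ubiquitin on lysine K119) in control cells, and held no peak of 4 further libraries. They were chosen from the 42461 pT120 peaks of the siVRK1 cells. Each had to share at least 1 bp with a ubK119 peak of the siControl cells and none with a peak of siControl pT120, siControl VRK1, siControl input or siVRK1 input. The exclusions alone removed 4858 peaks and kept 37603. Of these, 36462 overlapped no siControl ubK119 peak and serve below as the comparison regions.

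The study had 7 chromatin immunoprecipitation sequencing libraries, 1 for each combination of siRNA and antibody, all from HT1080 cells. The siVRK1 cells received siRNA against human VRK1 and the siControl cells a non-targeting siRNA. pT120, ubK119 and input DNA were sequenced under both siRNAs, VRK1 under siControl only, so the loss of VRK1 protein was not checked here. With 1 library per condition no spread between replicates could be measured and no p-value is given: every interval is a 95% interval of counting error only. Library totals ran from 20687386 reads (siControl pT120) to 40442678 (siControl ubK119), and positions are on hg19 as deposited. No hg19 annotation was used here, so regions are named by position and not by gene.

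T120 and K119 are neighbours on the C-terminal tail of H2A. VRK1 is a nuclear serine/threonine kinase that can phosphorylate T120. K119 is ubiquitylated by the E3 ligase of Polycomb repressive complex 1, a complex known for keeping developmental genes silent. An antibody peak is a stretch with many reads, and input DNA, which is not immunoprecipitated, shows how many reads a stretch gives without an antibody.

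Most of the 1141 regions were short and close to the lowest height in the deposited list. Their length ran from 200 to 3190 bp with a median of 275 bp, and 296 (25.9%) had the minimum of 200 bp. The comparison regions had a median of 210 bp. Height, the largest number of extended reads at any window of the peak, ran from 12 to 42 with a median of 13. A height of 12, the smallest in the list, was found in 415 regions (36.4%), and 136 (11.9%) reached at least 18. Long regions were more frequent than in the comparison set: 31 (2.72%) spanned at least 1000 bp, against 19 (0.0521%). Of those 31 long regions, 16 were on chromosome 18.

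In most regions the pT120 and ubK119 peaks overlapped in part. The overlap had a median of 195 bp and ran from 1 to 805 bp. ubK119 peaks covered a median of 58.9% of the pT120 peak. Coverage reached at least 50% in 674 regions (59.1%), was complete in 153 (13.4%) and stayed under 10% in 60 (5.26%). The centres of the paired peaks lay a median of 120.5 bp apart, within 100 bp in 515 regions (45.1%) and within 300 bp in 1019 (89.3%). The 1141 regions met 1161 ubK119 peaks, whose height ran from 15, the minimum of that list, to 100 with a median of 17.

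**Figure D1:**
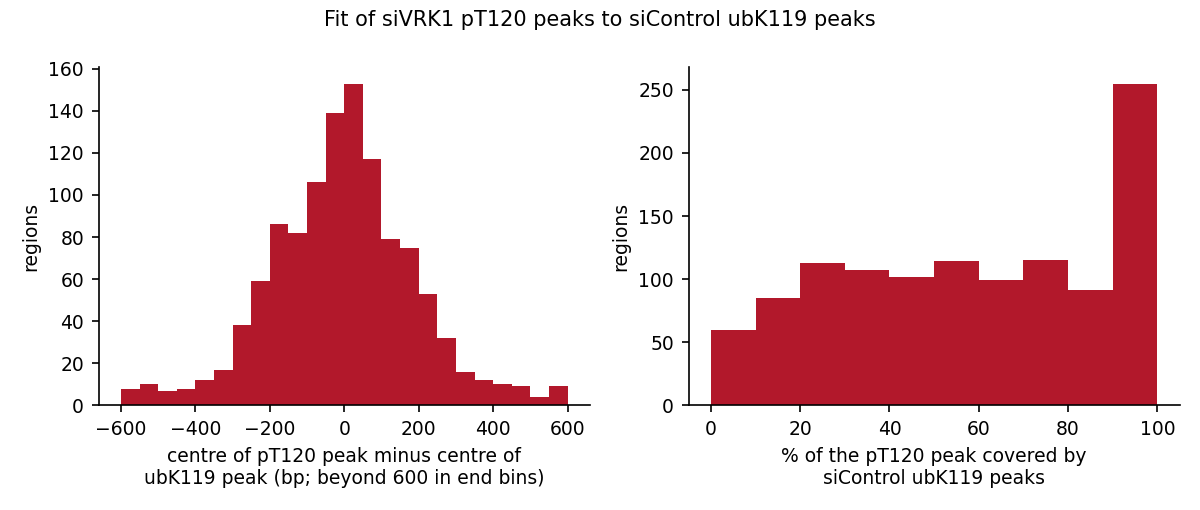
Left, distance in bp from the centre of the siControl ubK119 peak to the centre of the siVRK1 pT120 peak, as a count of regions; right, percent of each pT120 peak covered by ubK119 peaks. The distances gather around 0, with 1019 of 1141 within 300 bp, and coverage spreads over the whole range from under 10% to complete.

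The edge of the rule separated regions that differed by a few bp. The shortest overlaps, 1 bp, were at chr3:56297697-56297906 and chr3:123012495-123012695, followed by 2 bp at chr5:11273395-11273640. The first of these had 11 siVRK1 pT120 reads, 5 siControl ubK119 reads and 1 read in each of the other 5 libraries. The second had 13 and 6 reads of these marks, with 8 siVRK1 input and 10 siVRK1 ubK119 reads. The third had 13 and 19 reads, with 8 siVRK1 input and 9 siVRK1 ubK119 reads. Just outside, chr5:26273060-26273268 and chr18:6881262-6881611 touched a ubK119 peak without sharing a base, and chr3:155075665-155075865 ended 1 bp short of one. Their siVRK1 pT120 reads were 12, 19 and 11 and their siControl ubK119 reads 8, 18 and 4, so regions on the 2 sides of the rule had similar counts.

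Read density, in RPM (reads per 1000000 reads of the library) per kb, was taken over the 407.3 kb of the 1141 regions and the 8804 kb of the comparison regions. In the libraries that chose the regions, siVRK1 pT120 had 1.62 RPM per kb and siControl pT120 0.728, and siControl ubK119 had 1.38. The remaining densities were 0.734 for VRK1, 0.804 for the siControl input, 0.750 for the siVRK1 input and 0.723 for siVRK1 ubK119. Only siVRK1 pT120 and siControl ubK119 stood clear of the inputs, which is what the rule asked for. In the comparison regions the same order of libraries gave 1.52, 0.434, 0.585, 0.418, 0.517, 0.449 and 0.354.

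All 7 densities were higher in the 1141 regions than in the comparison regions, both inputs included. The siVRK1 pT120 densities were close, while the siControl and siVRK1 inputs were at 0.804 against 0.517 and 0.750 against 0.449. For that reason each library is compared below with the input of its own siRNA. The part that input density had in the choice of these regions was not tested.

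**Figure D2:**
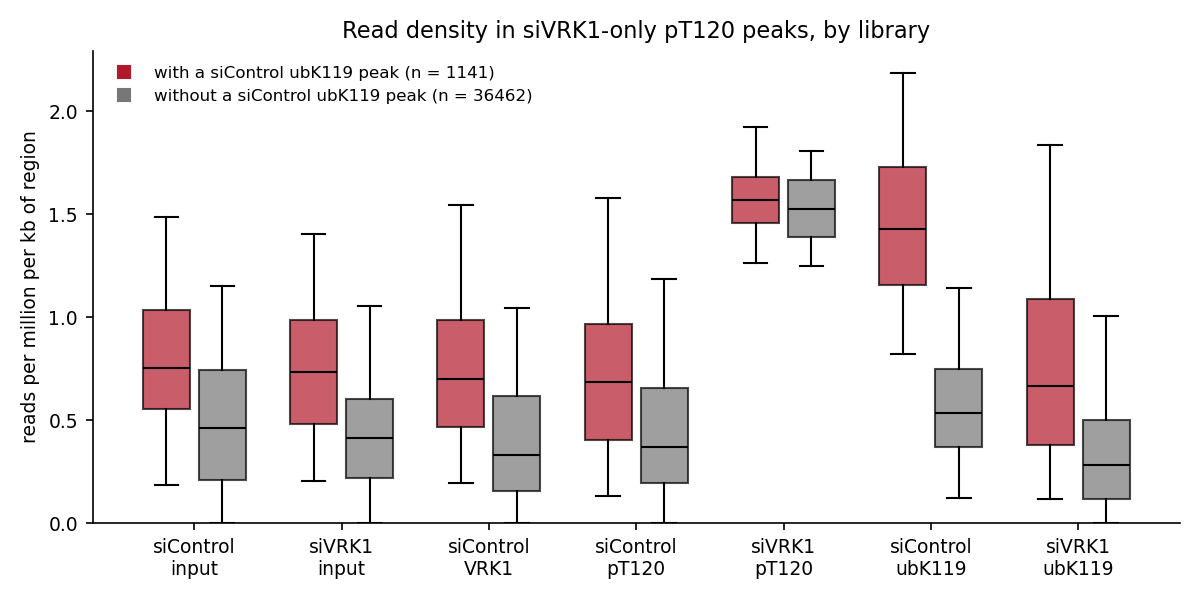
RPM per kb of region in each of the 7 libraries, for the 1141 regions with a siControl ubK119 peak and the 36462 without; boxes span the quartiles with the median as a line, whiskers the 5th to 95th percentile of regions. Both sets are alike in siVRK1 pT120, and the regions with a ubK119 peak lie higher in the other 6 libraries.

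Single regions rested on few reads. The median region had 15 siVRK1 pT120 reads (5 to 208), 4 siControl pT120 reads (0 to 47), 17 siControl ubK119 reads (1 to 142) and 6 siVRK1 ubK119 reads (0 to 56). VRK1 had a median of 7 reads and the siControl and siVRK1 inputs 6 and 7. No read was found in 52 regions for siControl pT120, in 39 for siVRK1 ubK119 and in 11 for VRK1. A count of 0 allows up to 0.145, 0.100 and 0.0936 RPM in these 3 libraries (3 reads). In 265 regions (23.2%) the reads counted in the region were fewer than the height, which counts extended reads.

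Over all 1141 regions siVRK1 pT120 was 2.16 (2.11 to 2.21) times its input and siControl pT120 0.905 (0.876 to 0.936) times its input. The ratio of the 2 pT120 libraries, siVRK1 over siControl, was 2.23 (2.17 to 2.29). These ratios follow from the rule and are a description. The comparison regions, chosen by the same pT120 calls, had larger contrasts: 3.39 (3.37 to 3.41) over input in siVRK1 cells, 0.840 (0.833 to 0.848) in siControl cells and 3.50 (3.48 to 3.53) between the siRNAs. The siVRK1 pT120 enrichment over input at ubK119 sites was thus 0.638 (0.623 to 0.654) times that of the comparison regions. The lowest height in the lists corresponds to 0.333 RPM in siVRK1 pT120 and to 0.580 RPM in siControl pT120, so a peak of siControl pT120 needed a higher RPM. Scaling each library by its reads in the siVRK1 pT120 regions outside input peaks, in place of its total, turned the siRNA ratio to 0.677; that scaling takes siVRK1 pT120 down by its construction.

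Counts of single regions at a difference of at least 2-fold in RPM read as follows, against the share among all 42461 siVRK1 pT120 peaks. siVRK1 pT120 was at least 2-fold over its input in 657 regions (57.6%; all peaks 75.5%). It was at least 2-fold over siControl pT120 in 710 (62.2%; all peaks 74.4%). In no region was siVRK1 pT120 lower at least 2-fold than its input (all peaks 1.02%) or than siControl pT120 (all peaks 0.655%). For siControl pT120 against its own input, 124 regions were higher (10.9%; all peaks 15.4%) and 246 lower (21.6%; all peaks 30.4%). Both pT120 contrasts were used by the rule, so nothing is read from these counts.

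The ubK119 library of the siVRK1 cells was the only one whose peaks the rule did not use. In the siControl cells, where the rule required a peak, ubK119 was 1.72 (1.68 to 1.76) times its input. In siVRK1 cells it was 0.964 (0.937 to 0.992) times its input: 294.5 RPM of ubK119 and 305.6 RPM of input summed over the 1141 regions. The ratio of ubK119 between the siRNAs, siVRK1 over siControl, was 0.523 (0.511 to 0.536). Its direction is not independent of the rule, which requires a peak in the siControl library and asks nothing of the other. The comparison regions, picked without a siControl ubK119 peak, gave 0.606 (0.601 to 0.610).

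Compared with regions that lacked a siControl ubK119 peak, the 1141 regions had more ubK119 over input in siVRK1 cells. The ratio was 0.789 (0.782 to 0.795) in the comparison regions, and the quotient of the 2 ratios was 1.22 (1.19 to 1.26). siControl ubK119, used by the rule, had a quotient of 1.52 (1.48 to 1.56). VRK1 differed in the same direction by less: VRK1 over input was 0.914 (0.888 to 0.941) against 0.809 (0.802 to 0.815), a quotient of 1.13 (1.10 to 1.16). siControl pT120 over input had a quotient of 1.08 (1.04 to 1.11), and the 2 inputs, siVRK1 over siControl, 1.07 (1.04 to 1.11). VRK1, siControl pT120 and both inputs were also used by the rule, which excluded their peaks from both sets. Counting error is smaller than these differences, but the spread between libraries is unknown.

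Whether siVRK1 ubK119 lay under or over its input at the 1141 regions depended on how they were delimited. The ratio was 1.03 in the 674 regions covered to at least 50%, 1.01 with siControl ubK119 peaks of height 18 or more, and 1.10 when reads were counted in the ubK119 peaks in place of the pT120 peaks. Scaling by reads in the siVRK1 pT120 regions outside input peaks gave 1.18, and it also took VRK1 over input to 1.09 and the input ratio to 1.07. siVRK1 ubK119 over input stayed above that of the comparison regions in each setting where both were computed, which leaves out this scaling.

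By single regions, siVRK1 ubK119 was at least 2-fold over its input in 159 (13.9%), close to the 13.8% of all siVRK1 pT120 peaks, and at least 2-fold under it in 222 (19.5%; all peaks 33%). siControl ubK119 was over its input in 480 (42.1%; all peaks 23.1%) and under it in 9 (0.789%; all peaks 14.7%), as the rule favours. Between the siRNAs, ubK119 was at least 2-fold lower in siVRK1 cells in 598 regions (52.4%; all peaks 45.3%) and higher in 13 (1.14%; all peaks 8.79%). The inputs, siVRK1 against siControl, differed 2-fold upward in 136 regions (11.9%; all peaks 16.9%) and downward in 152 (13.3%; all peaks 23.4%). VRK1 was over its input in 136 (11.9%; all peaks 14.8%) and under it in 170 (14.9%; all peaks 27.4%). With medians of 4 to 17 reads per region, many such 2-fold differences are within counting error. The comparison regions, which make up most of all peaks, had fewer reads. Their median of siVRK1 ubK119 was 2 reads, against 6 in the 1141 regions, and 22.3% of them had none. The part of read number in the differences between these shares was not tested.

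Few of the 1141 regions held a ubK119 peak after VRK1 siRNA. A siVRK1 ubK119 peak overlapped 29 regions, 2.54% (exact interval 1.71 to 3.63%), against 5.03% of all siVRK1 pT120 peaks. In the comparison regions the share was 0.0631% (23 of 36462; 0.0400 to 0.0946%), and among the peaks removed by the exclusions it was 42.9%. siControl ubK119 peaks that passed the same exclusions but met no siVRK1 pT120 peak, 21572 in number, retained a siVRK1 ubK119 peak in 998 cases, 4.63% (4.35 to 4.92%). That share is of ubK119 peaks and the 2.54% is of pT120 peaks, so they are not like measures. The minimum height corresponds to 0.600 RPM in the siVRK1 ubK119 list and to 0.371 RPM in the siControl ubK119 list, so a site with equal RPM under both siRNAs could be listed in the second and not in the first.

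The 29 regions with a ubK119 peak under both siRNAs had 1.83 (1.59 to 2.10) times input ubK119 in siVRK1 cells and 1.75 (1.52 to 2.02) in siControl cells. Their ubK119 ratio between the siRNAs was 0.9995 (0.893 to 1.12). In the other 1112 regions the siVRK1 value was 0.935 (0.908 to 0.962) and the siRNA ratio 0.508 (0.495 to 0.521). The split was made on siVRK1 ubK119 peaks, so these ubK119 values are a description. VRK1 over input was 1.14 (0.974 to 1.33) in the 29 regions and 0.906 (0.880 to 0.934) in the 1112, intervals that did not overlap. VRK1 peaks were excluded by the rule. VRK1 and siVRK1 ubK119 reads per kb also varied together over the 1141 regions (Spearman's rho 0.45), so the VRK1 values of this split are a description too.

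siControl ubK119 peaks without a siVRK1 pT120 peak had more ubK119 over input than the 1141 regions under both siRNAs. Over those 21572 peaks, ubK119 was 2.68 (2.67 to 2.70) times input in siControl cells and 1.45 (1.44 to 1.46) in siVRK1 cells. siVRK1 pT120 was at 0.776 (0.770 to 0.782) of its input there, siControl pT120 at 1.03 (1.02 to 1.04) and VRK1 at 1.15 (1.14 to 1.16). Those reads were counted in ubK119 peaks, so the nearest values for the present regions are those over their 1161 ubK119 peaks. They were 1.92 (1.87 to 1.96) for siControl and 1.10 (1.07 to 1.12) for siVRK1 ubK119. The exclusions were not applied to these 1161 peaks themselves. Their siControl input density was 0.923 RPM per kb, against 0.640 at the 21572. Over the same 1161 peaks siVRK1 pT120 was at 1.53 (1.49 to 1.56), siControl pT120 at 0.9201 (0.893 to 0.949) and VRK1 at 0.959 (0.934 to 0.986) of input. The 21572 peaks were picked for lacking a siVRK1 pT120 peak and the 1161 for meeting one. Their siVRK1 pT120 values follow from that choice and are a description. siControl pT120 and VRK1 were used by the exclusions, so nothing is read from their values either. VRK1 density itself was 0.885 RPM per kb over the 1161 ubK119 peaks and 0.734 over the 21572. Counted in the 1141 pT120 regions, it was 0.734. Under both siRNAs, ubK119 over input was lower at the 1161 peaks than at the 21572, of which only the latter had all passed the exclusions. The part of the exclusions in this difference was not tested. The siRNA ratio of ubK119 was 0.551 (0.539 to 0.563) at the 1161 peaks and 0.594 (0.591 to 0.598) at the 21572.

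The input reads of a region moved with its place in the set. Among the 37603 peaks that passed the exclusions, the share with a siControl ubK119 peak was 0.659% where both inputs together had 0 to 5 reads. It was 2.02% at 6 to 10 reads, 7.32% at 11 to 20, 32.6% at 21 to 40 and 65.4% (54.0 to 75.7%) at 41 or more. Length and height ran the same way, from 1.84% at 200 bp to 31.7% above 500 bp, and from 1.95% at height 12 to 34.7% at height 18 or more. The 3 measures are not independent of each other, and a longer region has more bases that a ubK119 peak could touch.

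Within classes of equal input reads the regions still had more siVRK1 ubK119 over input than the comparison regions, except at the most reads. At 0 to 5 input reads the ratios were 1.69 (1.43 to 2.01) and 1.01 (0.992 to 1.03). At 6 to 10 reads they were 1.30 (1.21 to 1.41) and 0.755 (0.745 to 0.765), and at 11 to 20 reads 1.01 (0.960 to 1.05) and 0.709 (0.698 to 0.719). The gap narrowed to 0.883 (0.839 to 0.931) against 0.696 (0.668 to 0.725) at 21 to 40 reads. At 41 or more, with 53 and 28 regions, the values of 0.677 (0.626 to 0.732) and 0.642 (0.572 to 0.720) overlapped. Input reads are also the denominator, so a fall of the ratio across classes is built in, and only the 2 sets within a class can be compared.

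VRK1 and siControl pT120 behaved like siVRK1 ubK119 in this respect. VRK1 over input was 1.54 (1.28 to 1.87) against 1.08 (1.07 to 1.10) at 0 to 5 input reads and 0.931 (0.888 to 0.978) against 0.692 (0.681 to 0.702) at 11 to 20. siControl pT120 over input was 1.68 (1.37 to 2.06) against 1.17 (1.15 to 1.19) and 0.888 (0.841 to 0.939) against 0.701 (0.689 to 0.712) in the same classes. At 41 or more input reads the intervals overlapped for both. siVRK1 pT120 over input, chosen for by the rule, did not keep 1 order across the classes. It was lower in the ubK119 regions at 0 to 5 input reads, with 5.30 (4.60 to 6.13) against 6.67 (6.58 to 6.75). The values were 2.91 (2.73 to 3.11) and 3.05 (3.03 to 3.08) at 6 to 10 reads and 1.91 (1.83 to 1.98) and 1.99 (1.97 to 2.01) at 11 to 20, with overlapping intervals. It was higher in the ubK119 regions at 21 to 40 reads, with 1.95 (1.87 to 2.04) against 1.76 (1.70 to 1.81), and at 41 or more the 2.18 (2.06 to 2.31) and 1.90 (1.75 to 2.07) overlapped.

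**Figure D3:**
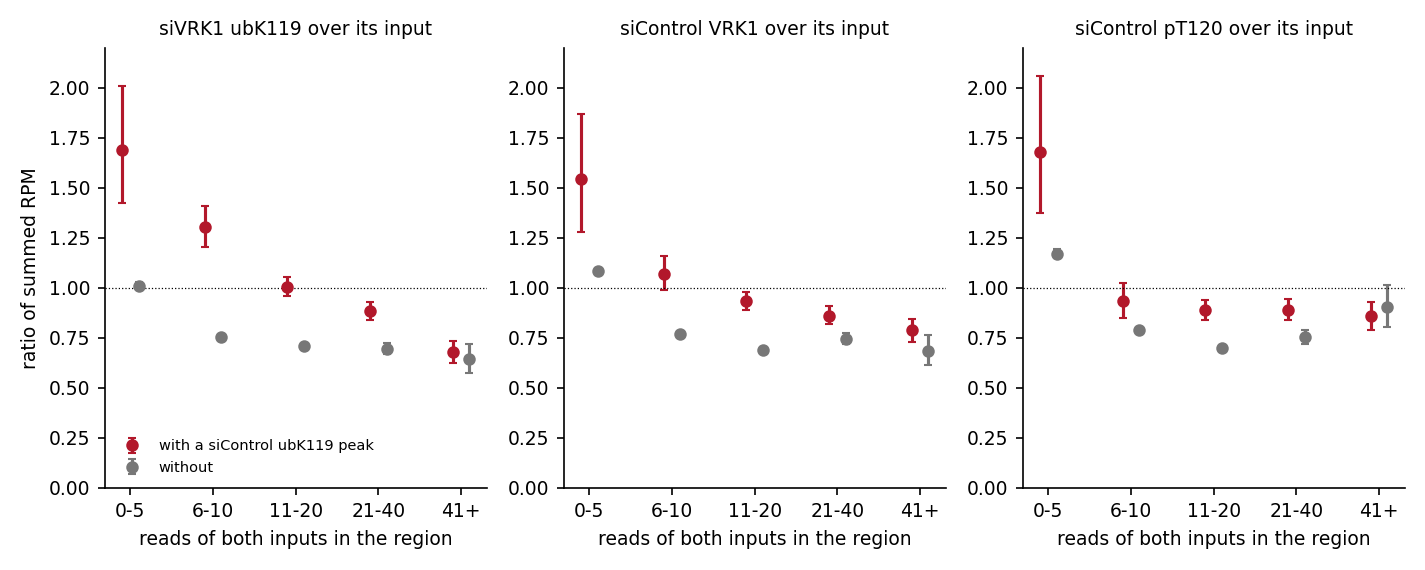
Ratio of summed RPM over the input of the same siRNA for siVRK1 ubK119, siControl VRK1 and siControl pT120, by the reads of both inputs in the region; points are sets of regions with and without a siControl ubK119 peak, bars 95% counting intervals, and the dotted line marks 1. The regions with a ubK119 peak lie above the others in all classes up to 40 input reads in each panel, and the intervals overlap at 41 or more.

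The regions were also divided by how much of them siControl ubK119 peaks covered, so their siControl ubK119 values restate the division and are a description. In the 674 regions covered to at least 50% by ubK119 peaks, siControl ubK119 was 1.99 (1.93 to 2.06) times input and siVRK1 ubK119 1.03 (0.990 to 1.07). In the 467 regions covered less, these were 1.43 (1.38 to 1.48) and 0.889 (0.852 to 0.928). VRK1 over input ran alongside, at 0.973 (0.935 to 1.01) and 0.851 (0.815 to 0.888). siVRK1 pT120 over input, used by the rule, went the other way, with 2.03 (1.97 to 2.10) in the better covered and 2.31 (2.23 to 2.39) in the less covered regions. Percent covered has the length of the pT120 peak as its denominator, and these values also differed by length. At 200 bp and above 500 bp, siVRK1 pT120 over input was 1.95 and 2.35, siVRK1 ubK119 1.10 and 0.782, and VRK1 0.988 and 0.827. The part of length in the differences by coverage was not tested. By the height of the siControl ubK119 peak, siVRK1 ubK119 over input was 0.938 (0.883 to 0.997) at 15, 0.907 (0.863 to 0.955) at 16 to 17, 0.991 (0.937 to 1.05) at 18 to 20 and 1.06 (0.994 to 1.14) at 21 or more, with no steady order across the lower classes.

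Across the 1141 regions, Spearman's rho between reads per kb of siVRK1 pT120 and siControl ubK119 was -0.03. Both libraries selected the regions and are cut off at a minimum height, and siVRK1 pT120 had a rho of at most 0.13 with any library, 0.09 with its own input, so nothing is read from that value. VRK1 and siVRK1 ubK119 had a rho of 0.45. VRK1 and siVRK1 ubK119 were also related to the siVRK1 input, with 0.43 and 0.41, and the 2 inputs to each other with 0.34. ubK119 under the 2 siRNAs had 0.26 and pT120 under the 2 siRNAs 0.10. All these values are over the same regions, which share length and input density, and describe these libraries only.

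The 1141 regions were gathered on few chromosomes. Chromosome 18 held 370 (32.4%), against 2.33% of the comparison regions. Chromosome 3 followed with 199, chromosome 5 with 142, chromosome 20 with 61 and chromosome 9 with 45, and these 5 together had 817 (71.6%). Chromosome 3 had the largest number of pT120 peaks to begin with (28.4% of the comparison regions), and only 1.89% of its peaks that passed the exclusions met a ubK119 peak. The same share was 30.3% (27.8 to 33.0%) on chromosome 18, 33.3% (19 of 57) on chromosome Y, 10.1% on chromosome 4 and 0.816% on chromosome 13. Chromosome 22 had none of its 26, which allows a share of up to 13.2%.

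**Figure D4:**
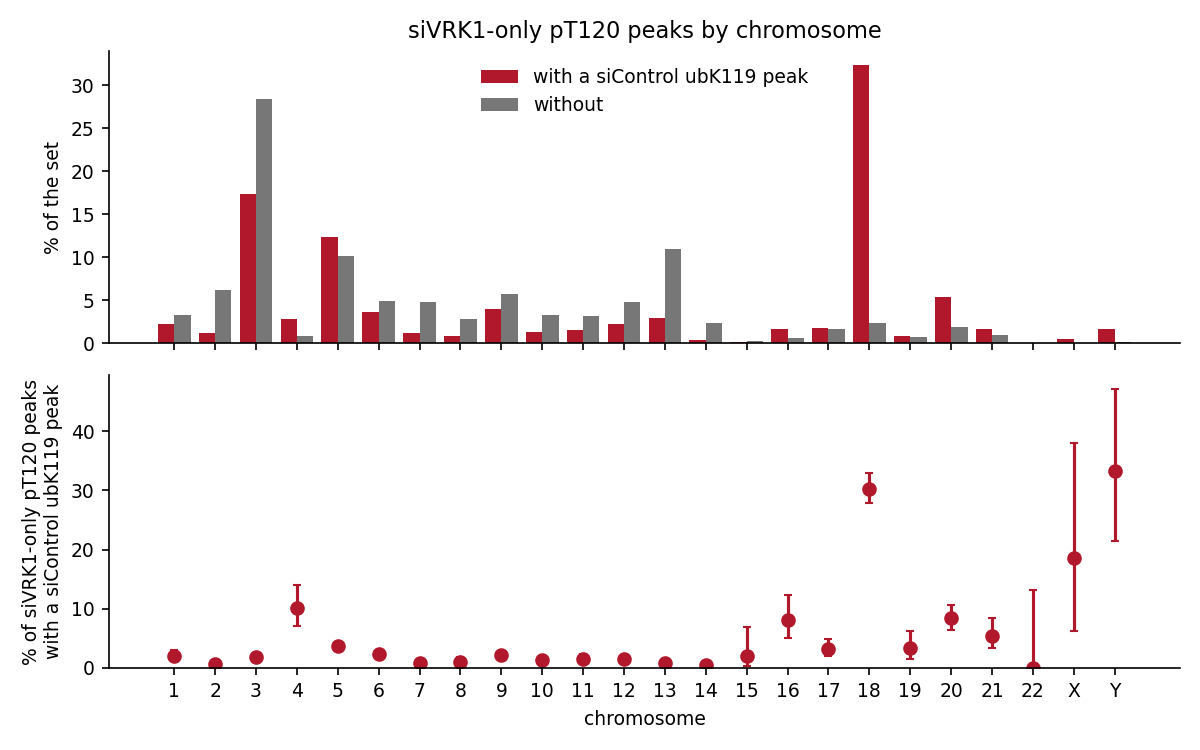
Top, percent of the 1141 regions with and of the 36462 without a siControl ubK119 peak on each chromosome; bottom, percent of the siVRK1-only pT120 peaks of each chromosome that meet a ubK119 peak, with 95% exact intervals. Chromosome 18 holds 32.4% of the first set and 2.33% of the second, and chromosomes 18 and Y have the highest shares in the lower panel.

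Enrichment over input was somewhat lower on chromosome 18 than elsewhere for both marks that chose the regions. siVRK1 pT120 over input was 2.04 (1.97 to 2.12) on chromosome 18 and 2.25 (2.18 to 2.32) elsewhere, and siControl ubK119 over input was 1.59 (1.53 to 1.65) and 1.82 (1.76 to 1.88). siVRK1 ubK119 over input was 0.924 (0.884 to 0.966) and 0.993 (0.957 to 1.03). In comparison regions it was 0.823 (0.791 to 0.857) on chromosome 18 and 0.787 (0.780 to 0.794) elsewhere, so the excess of the ubK119 regions was present in both parts of the genome. Input density was high on this chromosome in both sets, 0.869 and 0.722 RPM per kb in the siControl input, against 0.760 and 0.511 elsewhere. The part of input density in the excess on this chromosome was not tested.

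Of the 19 chromosomes with at least 10 regions, siControl ubK119 was over input on all 19, from 1.45 (chromosome 6) to 2.85 (chromosome 2). siVRK1 ubK119 was lowest at 0.776 (0.640 to 0.939) on chromosome 21 and highest at 1.42 (0.991 to 2.05) on chromosome 2. It exceeded 1 on 8 chromosomes, with the interval above 1 on chromosome 5 alone (1.30; 1.18 to 1.43) and below 1 on 5. The ubK119 ratio between the siRNAs was under 1 on all 19, from 0.450 on chromosome 3 to 0.645 on chromosome 4, and the pT120 ratio ran from 1.77 on chromosome 21 to 2.60 on chromosome 13. Both directions are those the rule favours.

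Joined where neighbours lay at most 100 kb apart, the regions formed 455 groups. Single regions made up 334 groups, and 12 groups of at least 10 regions held 468 of the 1141. The largest, chr18:5972935-8291633, spanned 2319 kb with 304 regions among 728 pT120 peaks that passed the exclusions and 1289 siControl ubK119 peaks. Another 729 siVRK1 pT120 peaks of that stretch had been excluded. siVRK1 pT120 over input was 2.03 (1.94 to 2.11) there, siControl ubK119 1.64 (1.57 to 1.71) and siVRK1 ubK119 0.967 (0.919 to 1.02), and 11 of the 29 regions with a siVRK1 ubK119 peak were in it.

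The next groups were chr6:57246463-57565397 with 35 regions, and chr18:9055455-9470923 and chr4:190473908-190671871 with 19 each. A group of 13 was at chrY:9944978-10039838. siVRK1 ubK119 over input differed among the groups. It was 0.565 (0.480 to 0.663) at the second chromosome 18 stretch, where VRK1 over input was 0.669 (0.575 to 0.778). At chr18:10036042-10306621, a group of 11, VRK1 over input was 0.6581 (0.4999 to 0.8642) and siVRK1 ubK119 over input 0.9098 (0.671 to 1.231). VRK1 peaks were excluded by the rule, so nothing is read from these VRK1 values. siVRK1 ubK119 over input was 0.802 (0.704 to 0.913) at the chromosome 6 group. At chr5:1863673-2302520, a group of 10 with no excluded pT120 peak in it, siVRK1 ubK119 was 2.09 (1.52 to 2.91) times input and siControl ubK119 2.53 (1.87 to 3.50), and 2 of its regions kept a ubK119 peak under siVRK1.

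Many of the regions lay near peaks of the libraries used for the exclusions. Within 500 bp of a peak of siControl pT120, siControl VRK1 or either input lay 371 (32.5%, interval 29.8 to 35.3%), against 4.29% of the comparison regions. Within 5000 bp lay 839 (73.5%), against 25.9%. By the rule, none of these peaks overlapped a region. The part of that closeness in the results was not tested, beyond a stricter exclusion within 500 bp. Under it, siVRK1 ubK119 over input was 0.982 (0.946 to 1.02), and 1.82% of the regions left had a siVRK1 ubK119 peak. The pT120 ratio between the siRNAs, whose direction the rule fixes, was 2.41.

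The highest region, chr4:190194833-190195314, had a height of 42. Its siVRK1 pT120 reads numbered 62 (1.72 RPM), against 13 (0.628 RPM) in siControl pT120. siControl ubK119 had 35 reads (0.865 RPM) and siVRK1 ubK119 7 (0.234 RPM), VRK1 16 (0.499 RPM), and the siControl and siVRK1 inputs 14 (0.521 RPM) and 13 (0.391 RPM). The pT120 ratio between the siRNAs was 2.74 (1.49 to 5.43), and siVRK1 ubK119 over input 0.597 (0.202 to 1.61). siVRK1 pT120 was the highest of the 7 libraries and siVRK1 ubK119 the lowest.

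The third highest, chr1:5735352-5735703 (height 35), had 38 siVRK1 pT120 reads (1.05 RPM) against 7 in siControl pT120 (0.338 RPM). Its siControl ubK119 reads were 24 (0.593 RPM), and siVRK1 ubK119 with 9 (0.300 RPM) equalled its input with 10 (0.301 RPM). At chr21:11063452-11064175 (height 32) siVRK1 pT120 had 67 reads (1.86 RPM), 6.87 (3.41 to 15.7) times input, while siVRK1 ubK119 had 3 reads (0.100 RPM) against 32 (0.791 RPM) in siControl cells. The contrast of pT120 and ubK119 in siVRK1 cells was wider there than in any other of the 10 highest.

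A weaker case was chr18:8676465-8676989 (height 30). Its 44 siVRK1 pT120 reads (1.22 RPM) stood beside 28 siVRK1 input reads (0.842 RPM), a ratio of 1.45 (0.883 to 2.42), and its pT120 ratio between the siRNAs was 1.68 (0.919 to 3.26). Both intervals include 1, so no pT120 difference was detectable at this depth.

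The longest region, chr18:9207086-9210276 (3190 bp, height 29), gave the most reads. siVRK1 pT120 had 208 (5.77 RPM) and siControl pT120 45 (2.18 RPM), a ratio of 2.65 (1.92 to 3.75). siControl ubK119 had 142 reads (3.51 RPM) and siVRK1 ubK119 35 (1.17 RPM), while the inputs had 72 (2.68 RPM) and 77 (2.32 RPM). With siVRK1 ubK119 at 0.504 (0.328 to 0.761) of its input, this was the 1 region of the 10 highest whose interval lay under 1. Its ubK119 peak, chr18:9208646-9209363, covered 22.5% of it, and within that peak the ratio was 0.286 (0.114 to 0.637).

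Over the 10 highest regions, siVRK1 pT120 over input had a median of 3.49 (range 1.45 to 6.87), with the interval above 1 in 9. siVRK1 ubK119 over input had a median of 0.596 (0.333 to 1.03), and its interval was above 1 in none. The lowest value, 0.333 (0.0589 to 1.29) at chr18:10126235-10126801, rested on 3 reads and was 2.09 (1.13 to 4.01) when reads were counted in its ubK119 peak, chr18:10126367-10127097. siControl ubK119 over input ran from 1.14 to 2.58 with the interval above 1 in 3, and VRK1 from 0.336 to 1.36 with none above 1 and 2 below. These regions were ordered by siVRK1 pT120 height, so the first of these values follows from the order.

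**Figure D5:**
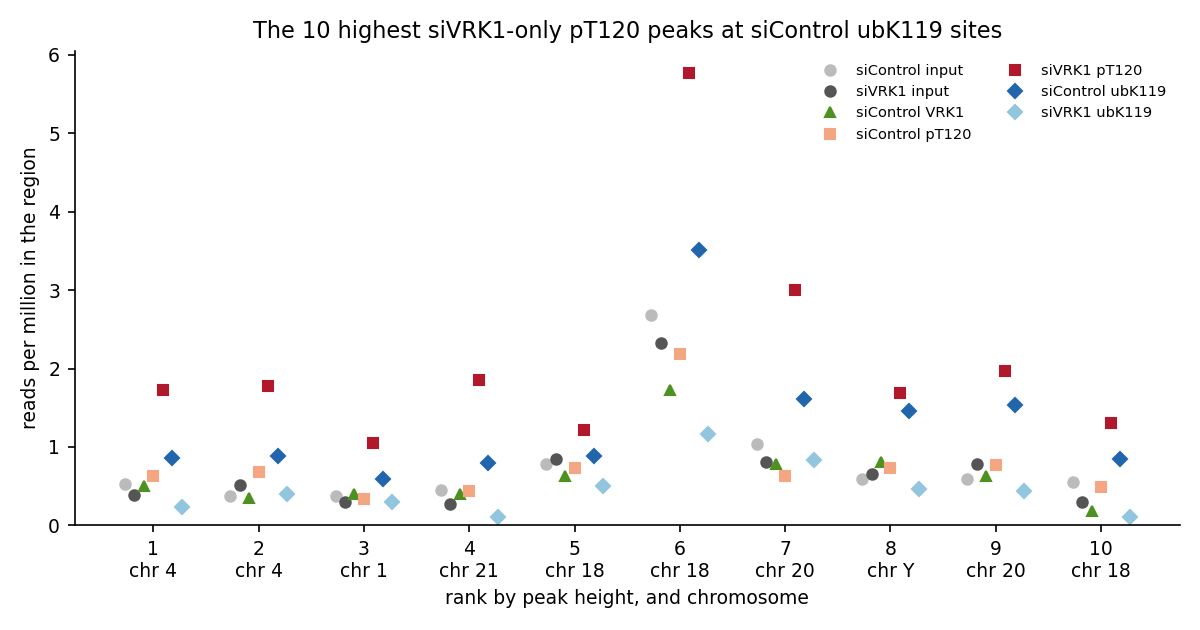
RPM in each of the 7 libraries at the 10 regions of largest siVRK1 pT120 height, by rank, with the chromosome under each rank. siVRK1 pT120 is the highest library at all 10, and siVRK1 ubK119 lies under siControl ubK119 at each of them.

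The 5 longest regions showed different siVRK1 ubK119 levels at comparable read numbers. At chr18:9151610-9153976, siVRK1 ubK119 had 33 reads against 62 in its input, a ratio of 0.591 (0.375 to 0.915). chr18:7912837-7915661 gave 52 against 80, or 0.721 (0.499 to 1.03). At chr6:57433658-57435864 there were 39 against 41, or 1.06 (0.663 to 1.68), and a pT120 ratio between the siRNAs of 4.76 (2.87 to 8.41). chr18:8591295-8593252, the only named region with a siVRK1 ubK119 peak, had 56 against 55, or 1.13 (0.765 to 1.67), the most siVRK1 ubK119 reads of all 1141.

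Among the 5 regions with the most siVRK1 ubK119 reads, 1 had an interval of that mark above its input. The regions were picked by those reads, which favours a high ratio. chr18:6875764-6876430 had 34 siVRK1 ubK119 reads (1.13 RPM) against 16 in its input (0.481 RPM), a ratio of 2.36 (1.27 to 4.57). It lay wholly inside a siControl ubK119 peak, chr18:6875193-6877198, and had 48 siControl ubK119 reads (1.19 RPM). Its ubK119 ratio, siVRK1 over siControl, was 0.956 (0.597 to 1.51). siVRK1 pT120 had 37 reads (1.03 RPM) and siControl pT120 8 (0.387 RPM). Counted over the whole ubK119 peak, siVRK1 ubK119 over input was 1.21 (0.88 to 1.66) in place of 2.36, with an interval that includes 1.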

How the data were processed

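Chromatin from fixed, sonicated HT1080 nuclei was sequenced in 7 libraries, 1 per siRNA and antibody or input. Tools listed in the submitters' processing notes, with no roles, are Partek, Bowtie 0.12.8 and CASAVA 1.8.2, and the build is hg19. How peaks were called and duplicates handled is not given in the sources used. Per the file headers, each deposited list holds the peaks of 1 library, with the peak height as a signal of extended reads, the same height in RPM, a Mann-Whitney p-value (not used here), raw read counts of all 7 libraries per region and the percent of the peak covered by other libraries' peaks. Groups were taken from sample titles.

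Library totals were height divided by deposited RPM. Overlap of at least 1 bp was recomputed from positions and differed from the deposited percent in 0 cases. Whether positions start at 0 or 1 is not given. Counts were divided by library totals, summed over regions and compared as ratios with exact conditional binomial intervals; shares have exact Clopper-Pearson intervals; quotients of ratios have log-scale counting intervals. These cover counting error only, and PCR reads are not independent molecules. Scripts used Python 3.11.15, numpy 2.4.6, pandas 2.3.3 and scipy 1.17.1 and were tested on simulated data. The members, lists and rules were chosen with earlier results of these data known. Named regions are the 10 highest, the 5 longest, the 5 with most siVRK1 ubK119 reads, the 3 shortest overlaps and the 3 nearest peaks outside the rule.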

Additional observations from a re-analysis of the deposited data

How the results depend on the processing

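No paired analysis was possible because each condition has 1 library. Requiring 50% coverage, a pT120 height of 15 or a ubK119 height of 18 left 674, 375 and 429 regions; the share with a siVRK1 ubK119 peak was 5.13% at ubK119 height 18. In the order 50% coverage, pT120 height 15, ubK119 height 18, at least 10 input reads, siVRK1 ubK119 over input was 1.03, 0.844, 1.01 and 0.909 (0.964 with all regions), VRK1 over input 0.973, 0.879, 0.942 and 0.883, and pT120 siVRK1 over siControl 2.12, 2.31, 2.13 and 2.11. The ubK119 siRNA ratio was 0.498 at 50% coverage, 0.487 at pT120 height 15, 0.497 with exclusion within 500 bp and 0.546 at 10 input reads; the input ratio was 0.964 at 50% coverage. Exclusion within 500 bp gave a pT120 ratio of 2.41 and a siVRK1 ubK119 over input of 0.982 (0.946 to 1.02). Scaling by reads in the siVRK1 pT120 regions lowers siVRK1 pT120 by its construction: the pT120 ratio was 0.677, ubK119 0.859, input 1.07, siVRK1 ubK119 over input 1.18 and VRK1 over input 1.09. Under that scaling the pT120 ratio was below 1 at 14 of 18 named regions: chromosome 4 from 190194833 (0.831) and 190883320 (0.797), 1 from 5735352 (0.946), Y from 9979792 (0.709), 20 from 29606010 (0.773), and 18 from 9207086 (0.806), 10126235 (0.819), 7912837 (0.656), 9151610 (0.640), 8591295 (0.576) and 6875764 (0.806), and also 18 from 8676465 (0.511), 3 from 123012495 (0.755) and 5 from 11273395 (0.378), whose unscaled intervals include 1. The next 2 settings were chosen after seeing the data. Without chromosome 18, siVRK1 ubK119 over input was 0.993 and the pT120 ratio 2.33. Counting in the ubK119 peaks gave 1.10 for siVRK1 ubK119 over input, 0.959 for VRK1 over input, 0.963 for input, 1.60 for pT120 and 0.551 for ubK119; at chromosome 18 from 10126235, siVRK1 ubK119 over input went from 0.333 to 2.09. The ubK119 siRNA ratio stayed under 1 in every setting run. Each setting kept the requirement of a siControl ubK119 peak, so this direction is the one the rule favours. siVRK1 ubK119 over input in the comparison regions was 0.759 at pT120 height 15, 0.781 with exclusion within 500 bp, 0.709 at 10 input reads, 0.787 without chromosome 18 and 0.794 at ubK119 height 18, below the 1141 regions in each. Except where a cause is named, the cause was not tested. Depth limits single regions, at medians of 4 to 17 reads.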
